A study of Mus musculus with 24 samples.

Results

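Insulin-like growth factor 1 (IGF-1) was given to cultured mouse cortical astrocytes whose insulin receptor gene was intact, and the RNA of these cells was set against that of cultures given vehicle. The comparison holds 8 of the series' 24 libraries, 4 titled floxed control with IGF-1 and 4 titled floxed control with vehicle, which were picked out by those titles. Astrocytes were grown from the cortex of newborn pups that carried floxed alleles of Insr, the insulin receptor gene, and cells other than astrocytes were reduced by shaking the flasks. At 14 days in vitro, 5 days after infection with an adenovirus for green fluorescent protein alone, the cells were starved of serum overnight in DMEM/F12 with 0.1% bovine serum albumin. They then received 100 nM IGF-1 or vehicle for 6 h. Of the other 16 libraries, 2 groups serve below as points of reference: floxed control cells given 100 nM insulin (4 libraries), and IRKO cells given IGF-1 or vehicle (8 libraries). IRKO cells differ in their virus, which carried a Cre recombinase fused to the green fluorescent protein and so deletes the floxed part of Insr. All groups share the floxed alleles, the infection, the starvation and 1 time point, so a culture that was neither infected nor starved is no part of the design.

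IGF-1 binds the IGF-1 receptor, a tyrosine kinase close in structure to the insulin receptor, and the receptor's adaptor proteins start several branches of signalling. The best known runs through PI3-kinase and AKT, which keeps FOXO transcription factors out of the nucleus and turns on mTORC1, a kinase complex that favours protein and lipid synthesis and holds back autophagy. Another runs through RAS and the MAP kinase ERK, which induces its own feedback inhibitors. Astrocytes make much of the brain's cholesterol, take up glutamate and feed neurons with lactate, and they carry receptors for both hormones.

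Poly-A RNA was read as 150 bp pairs without strand information. Gene counts summed to 16399905 to 17954890.0 in the IGF-1 libraries and to 15429688 to 19010986 in the vehicle libraries. The test covered 15599 of the 32719 genes in the files, those that passed an expression filter. Levels are in CPM, read counts scaled to a common library size, and values with ± are means and SD over the 4 libraries of a group. A gene is said to have risen or fallen when its adjusted p in edgeR's quasi-likelihood test was under 0.05. The labels do not say that the 4 libraries came from separate cultures, so p-values measure how far these libraries vary, and that variation may be technical. Astrocyte genes were abundant in all 8 libraries: Gfap, the astrocyte filament protein, had 10138 to 12446 counts under IGF-1 and 10077 to 12806 under vehicle, and Slc1a3, a glutamate carrier, had 19560 to 21345 and 21642 to 27151. Microglia were present too, with 3760 to 4115 and 4006 to 5002 counts of their receptor gene Csf1r. Of 7 endothelial markers Cldn5 had no count in any of the 8 libraries, and the 3 most abundant were Flt1 (73 to 101 counts under IGF-1 and 69 to 103 under vehicle), Kdr (22 to 62 and 46 to 62) and Tek (2 to 9 and 10 to 13), of which Tek fell, a call lost in 3 of the 8 fits with a library left out.

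At 6 h, IGF-1 changed 50.8% of the genes tested: 26.4% rose and 24.4% fell. Changes were small for most genes, with 5.47% that rose and 5.82% that fell by more than 1.5-fold, and 1.53% and 1.87% by more than 2-fold. All 4 IGF-1 libraries lay above all 4 vehicle libraries for 22.6% of genes and below them for 20.8%. The median log2 fold change over all genes was -0.0037. These shares are the background for every gene group below. Since the counts are relative to each library's total, a fall may be less RNA of the gene per cell or fewer cells of a type. It may also be a larger share of the total held by other RNA, with no loss per cell. These cannot be told apart here.

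The system that carries IGF-1 to its receptor moved in both directions. Of 13 tested genes for IGF ligands, binding proteins and the proteases that act on them, 4 rose and 5 fell. Igfbp3, the main carrier protein of IGF in blood (chromosome 11, 7206086 to 7213923, minus strand, mm10), had 1062, 1072, 1019 and 1069 CPM in the IGF-1 libraries, against 539, 604, 718 and 636 CPM in the vehicle libraries. Every IGF-1 library lay above every vehicle library (log2 fold change 0.76, SE 0.0539, edgeR adjusted p = 1.81e-15). Stc1, a secreted inhibitor of the protease that frees IGF from its carriers, stood at 4.51, 4.14, 4.1 and 3.54 CPM in the IGF-1 libraries, against 1.09, 1.02, 1.01 and 1.37 CPM in the vehicle libraries, again without overlap (log2 fold change 1.85, SE 0.199, edgeR adjusted p = 1.86e-10). That protease itself, Pappa (chromosome 4, 65124174 to 65357509, plus strand), went the other way, with 7.31, 7.43, 6.62 and 6.24 CPM in the IGF-1 libraries, against 24.4, 26.1, 26.1 and 28.9 CPM in the vehicle libraries. The lowest vehicle library was above the highest IGF-1 library (log2 fold change -1.93, SE 0.0903, edgeR adjusted p = 2.31e-21). Igfbp5 rose slightly (0.25 on the log2 scale) and so did Igfbp2 (0.22), while the carriers Igfbp4 (-0.24) and Igfbp7 (-0.23) fell. The ligand gene Igf1 fell by a small amount (-0.18, SE 0.074) with overlapping groups and lost its call in 4 of the 8 fits with a library left out, and Igf2, uncertain because 62.8% of its exon length overlaps another gene, did not pass (-0.23). The 5 falls became 3 when IGF-1 replicate 2 or vehicle replicate 1, 2 or 4 was left out.

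The genes of both receptors were lower under IGF-1. Igf1r (chromosome 7, 67952827 to 68233668, plus strand) had 100, 97.7, 96.3 and 102 CPM in the IGF-1 libraries, against 192, 192, 189 and 193 CPM in the vehicle libraries, so the IGF-1 libraries held 51.8% of the vehicle level with no overlap (log2 fold change -0.95, SE 0.0395, edgeR adjusted p = 4.2e-23). Insr had 47.1, 49.2, 50.9 and 46.7 CPM in the IGF-1 libraries, against 60, 66.9, 58.8 and 60.6 CPM in the vehicle libraries (log2 fold change -0.34, SE 0.0541, edgeR adjusted p = 1e-06). Of 18 receptor and adaptor genes, 5 rose and 7 fell. The insulin receptor substrate gene Irs2 fell (-0.23), as did the docking protein genes Gab1 (-0.47) and Gab2 (-0.52), and Irs1 (-0.27) is uncertain because 30.9% of its exon length is shared. Those that rose included Grb14 (0.80) and Grb10 (0.40), adaptor proteins that bind the activated receptors and inhibit them, and Cav1, the caveolin gene (0.57). The RAS adaptor gene Shc1 did not pass (0.01, SE 0.0446).

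Within the PI3-kinase and AKT group, 4 of 25 genes rose and 10 fell. Pik3ip1, a membrane protein that inhibits PI3-kinase, had 45.5, 43.1, 45.1 and 41.8 CPM in the IGF-1 libraries, against 119, 122, 124 and 125 CPM in the vehicle libraries. The IGF-1 libraries were all far below the lowest vehicle library (log2 fold change -1.48, SE 0.0512, edgeR adjusted p = 9.99e-26). The catalytic subunit gene Pik3ca (-0.68) and the phosphatase gene Inpp5k (-0.95) fell, whereas Akt1 (0.25) and the regulatory subunit gene Pik3r1 (0.53) rose. Trib2, a pseudokinase gene, had 41.9, 53, 42.9 and 42.4 CPM in the IGF-1 libraries, against 20.4, 21.2, 19.4 and 17.5 CPM in the vehicle libraries (log2 fold change 1.20, SE 0.073, edgeR adjusted p = 1.38e-17).

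Among 30 genes of mTORC1 and its brakes, 13 fell and 5 rose, with a median of -0.10. The largest fall was that of Sesn3, a sestrin that restrains mTORC1, which had 113, 103, 105 and 109 CPM in the IGF-1 libraries, against 255, 234, 219 and 235 CPM in the vehicle libraries. The groups were far apart (log2 fold change -1.13, SE 0.0438, edgeR adjusted p = 3.84e-24). Rragd, a GTPase that ties mTORC1 to the lysosome, fell by more than 2-fold (-1.10), and so did Castor2, a relative of an arginine sensor (-1.08). Tsc1 (-0.59), Depdc5 (-0.55), Flcn (-0.58) and its partner Fnip1 (-0.62) fell less. Rptor, a subunit of mTORC1 (0.07), and its activator Rheb (0.07) did not pass, and the brake gene Ddit4 rose (0.37). With only genes of a mean CPM of at least 1, 3 of these genes rose rather than 5.

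Feedback inhibitors of the MAP kinase branch leaned upward, with 12 of 20 genes that rose and 3 that fell (median 0.21). Dusp14, a phosphatase that acts on MAP kinases, had 4.33, 6.52, 4.49 and 5.28 CPM in the IGF-1 libraries, against 2.3, 2.37, 2.44 and 2.91 CPM in the vehicle libraries. No vehicle library reached an IGF-1 library (log2 fold change 1.04, SE 0.16, edgeR adjusted p = 6.17e-07). Dusp5 (0.86) and Dusp7 (0.78) encode ERK phosphatases, and Spry4 (0.88), Spry2 (0.51) and Spred3 (0.66) encode inhibitors of the path from receptors to RAF, and all of these rose. Dusp1, a stress-induced phosphatase gene, fell (-0.76).

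Genes of the first transcriptional wave fell more often than they rose. Of 27 early response factors, 13 fell and 5 rose (median -0.24). Klf2 (chromosome 8, 72319033 to 72321656, plus strand) had 6.58, 5.11, 7.13 and 6 CPM in the IGF-1 libraries, against 13.4, 14, 16.4 and 14.7 CPM in the vehicle libraries, with no overlap (log2 fold change -1.24, SE 0.119, edgeR adjusted p = 1.07e-11). The nuclear receptor genes Nr4a1 (-0.93) and Nr4a3 (-0.80) fell, as did Jun (-0.40), Junb (-0.26), Jund (-0.46) and Myc (-0.34). Fos (0.17, SE 0.0903) and Egr1 (0.01, SE 0.138) did not pass, and Srf rose (0.32). Fosl1 was higher (1.02), but another gene overlaps 57.2% of its exon length. Leaving out IGF-1 replicate 2 or vehicle replicate 4 left 3 rises in place of 5.

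**Figure D1:**
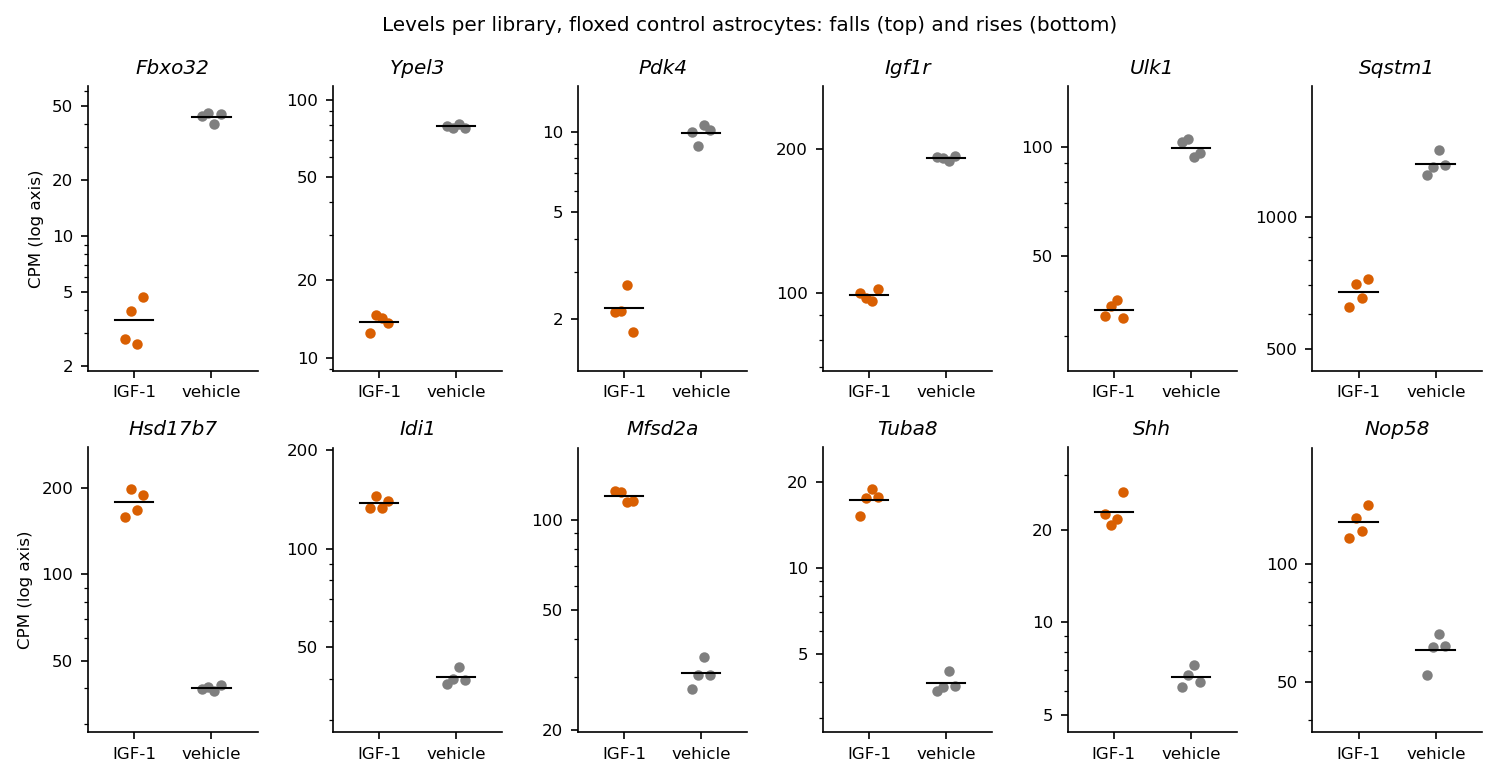
CPM of 12 genes in each library on a log axis, with the 4 IGF-1 libraries (orange) left of the 4 vehicle libraries (grey) and a bar at each group's mean. The top row holds 6 genes that fell and the bottom row 6 that rose, and in no panel do the groups overlap.

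Genes listed as FOXO targets were mostly lower under IGF-1. That list was chosen with earlier results of these data known, so its counts describe these data and are no independent test. Of 31 tested genes on a list of FOXO targets, 25 fell and 1 rose, with a median log2 fold change of -0.52, and their summed level was 2578 to 2712 TPM (a transcript level corrected for gene length and library size) under IGF-1, against 3789 to 3918 TPM under vehicle. Fbxo32, the ubiquitin ligase atrogin-1 of wasting muscle (chromosome 15, 58175879 to 58214932, minus strand), had 2.8, 3.97, 2.64 and 4.68 CPM in the IGF-1 libraries, against 44, 45.7, 40.2 and 45.3 CPM in the vehicle libraries. The IGF-1 level was 8.05% of the vehicle level (log2 fold change -3.64, SE 0.125, edgeR adjusted p = 7.27e-26). Ypel3, a growth-restraining gene (chromosome 7, 126776955 to 126780514, plus strand), had 12.4, 14.7, 14.2 and 13.7 CPM in the IGF-1 libraries, against 79.3, 77.9, 80.6 and 77.4 CPM in the vehicle libraries (log2 fold change -2.52, SE 0.0848, edgeR adjusted p = 3.69e-26). Crebrf, a regulator of the stress factor CREB3, had 28.5, 24.4, 26 and 24.8 CPM in the IGF-1 libraries, against 128, 134, 121 and 141 CPM in the vehicle libraries (log2 fold change -2.33, SE 0.0627, edgeR adjusted p = 1.96e-29). Pdk4, the kinase that shuts off pyruvate dehydrogenase in fasting, had 2.13, 2.16, 2.69 and 1.8 CPM in the IGF-1 libraries, against 9.99, 8.83, 10.6 and 10.1 CPM in the vehicle libraries (log2 fold change -2.16, SE 0.169, edgeR adjusted p = 2.64e-14). None of these 4 genes had overlapping groups. Further falls on the list were those of Tcp11l2 (-2.25), the cyclin gene Ccng2 (-1.40), the cell death gene Bbc3 (-1.03) and Cdkn1b, the cell cycle inhibitor p27 (-0.56). Sod2, a mitochondrial superoxide dismutase, was the gene that rose (0.26), and Bcl2l11, which encodes the death protein BIM, did not pass (-0.16, SE 0.0965).

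All 5 members of the Ypel family fell, Ypel3 the most, followed by Ypel2 (-1.44), Ypel4 (-0.91), Ypel1 (-0.51) and Ypel5 (-0.46), and the call of Ypel1 was lost without vehicle replicate 2. Their summed level was 86.5 to 94.6 TPM under IGF-1 and 257 to 273 TPM under vehicle. The FOXO genes themselves were split. Foxo4 (-0.80) and Foxo3 (-0.42) fell, Foxo1 did not pass (0.01, SE 0.0578), and Foxo6 rose, with 4.08, 4.03, 3.82 and 3.54 CPM in the IGF-1 libraries, against 1.66, 1.86, 2.23 and 2.23 CPM in the vehicle libraries (log2 fold change 0.95, SE 0.213, edgeR adjusted p = 0.000237).

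FOXO factors bind the letters GTAAACA. RefSeq promoter windows (250 bases before to 50 after a gene's start, build GRCm38.p6) were searched for this run on both strands, and 27 genes of the FOXO target list had windows in the table. It occurs in 3.65% of all 32851 windows, in 2.62% of the 14867 windows of tested genes and in 5 of the 34 windows of the target list (14.7%). The share was 5.63% of the 835 windows of genes that fell by more than 1.5-fold and 1.75% of the 743 windows of genes that rose by more than 1.5-fold. It was 2.48% of the windows of genes that did not pass. The run was in 0 of 24 windows of autophagy initiation genes and 0 of 33 windows of lysosomal genes, groups described below that mostly fell. These are descriptions with no test. The windows of 4 of the target genes are shown, 100 bases each read along the gene's strand, because 3 of these genes fell and 1 did not pass although all hold the run, whose letters are in capitals (as TGTTTAC where it lies on the other strand). Ypel3 is at chr7:126776913-126777012, plus strand, Sesn1 at chr10:41810524-41810623, plus strand, Txnip at chr3:96557816-96557915, plus strand, and Bcl2l11 at chr2:128125791-128125890, plus strand.
Ypel3: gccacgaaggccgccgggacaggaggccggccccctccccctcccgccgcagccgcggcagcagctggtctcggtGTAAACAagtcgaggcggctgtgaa
Sesn1: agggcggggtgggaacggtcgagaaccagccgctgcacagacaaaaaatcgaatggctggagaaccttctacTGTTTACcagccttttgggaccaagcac
Txnip: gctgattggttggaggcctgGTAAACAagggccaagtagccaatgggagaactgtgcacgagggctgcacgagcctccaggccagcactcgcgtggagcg
Bcl2l11: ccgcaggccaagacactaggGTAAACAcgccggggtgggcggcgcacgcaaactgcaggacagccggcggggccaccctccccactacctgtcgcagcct
Under IGF-1 Ypel3 was at 17.5% of its vehicle level, the sestrin gene Sesn1 at 70.9% and Txnip, a brake on glucose uptake, at 71%. A match is a description of the letters and not a bound site.

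Autophagy genes were lower as a group. Of 24 genes that start autophagy and build the phagophore, 19 fell and 2 rose (median -0.52). Ulk1, the kinase at the top of the pathway (chromosome 5, 110784488 to 110810097, minus strand), had 34, 36.3, 37.6 and 33.6 CPM in the IGF-1 libraries, against 103, 105, 93.4 and 96 CPM in the vehicle libraries (log2 fold change -1.49, SE 0.054, edgeR adjusted p = 4.8e-25). Subunits of its complex fell too, Atg13 (-0.97), Rb1cc1 (-0.55) and Atg101 (-0.49), as did the lipid kinase subunits Pik3c3 (-0.84) and Atg14 (-0.75) and the lipid-binding Wipi1 (-1.15). Wdr45 fell the most on this list (-1.86) but shares 24.7% of its exon length and is uncertain. Tmem41b (0.42) and Wdr45b (0.20) rose, while Becn1 (0.03) and Vmp1 (0.08) did not pass.

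Of 16 genes for the ATG8 proteins and their conjugation, 7 fell and 3 rose. Gabarapl1, an ATG8 protein that coats the autophagosome, had 95.6, 109, 100.5 and 118 CPM in the IGF-1 libraries, against 179, 171, 178 and 179.8 CPM in the vehicle libraries. Each IGF-1 library was lower than each vehicle library (log2 fold change -0.74, SE 0.0497, edgeR adjusted p = 2.54e-16). Map1lc3b, which encodes LC3B, also fell (-0.59), whereas its relatives Gabarap (-0.05) and Gabarapl2 (-0.01) did not pass. Of 22 receptors that deliver cargo to autophagosomes, 17 fell and 2 rose (median -0.44). Sqstm1, the abundant receptor p62, had 624, 706, 655 and 723 CPM in the IGF-1 libraries, against 1248, 1305, 1428 and 1316 CPM in the vehicle libraries, without overlap (log2 fold change -0.97, SE 0.0446, edgeR adjusted p = 1.48e-21). Calcoco1 (-1.51) and Retreg1 (-1.09) serve turnover of the endoplasmic reticulum, and Bnip3l (-0.60), Bnip3 (-0.44) and Optn (-0.68) that of mitochondria, and all 5 fell.

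Lysosomal genes fell by smaller steps. Of 39 lysosomal enzymes and membrane proteins, 28 fell and 2 rose (median -0.19), and their summed level was 12329 to 12505 TPM under IGF-1 and 14194 to 14738 TPM under vehicle. Naglu, a heparan sulfate hydrolase (-0.58), the protease gene Ctsf (-0.56), the calcium channel gene Mcoln1 (-0.50) and the chloride carrier gene Clcn7 (-0.45) changed the most among those that fell. Psap, the precursor of sphingolipid activators and one of the most abundant members, averaged 2501 ± 11.8 TPM under IGF-1 and 3054 ± 81.2 TPM under vehicle. The 2 rises, Asah1 (0.11) and Cd63 (0.14), became 1 or 0 when IGF-1 replicate 2 or 4 or vehicle replicate 1 or 2 was left out. Of 18 subunits of the lysosomal proton pump, 7 fell and 3 rose, and the rises numbered 1 under 8 of the alternatives. Tfeb (-0.06) and Tfe3 (-0.03), factors that drive lysosomal genes, did not pass, and Mitf fell (-0.47). Microglia are rich in lysosomes, and 7 of 15 microglia markers fell with none that rose, their sum being 2179.6 to 2235 TPM under IGF-1 and 2506 to 2584 TPM under vehicle. The part of microglia in the lysosomal fall was not tested.

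**Figure D2:**
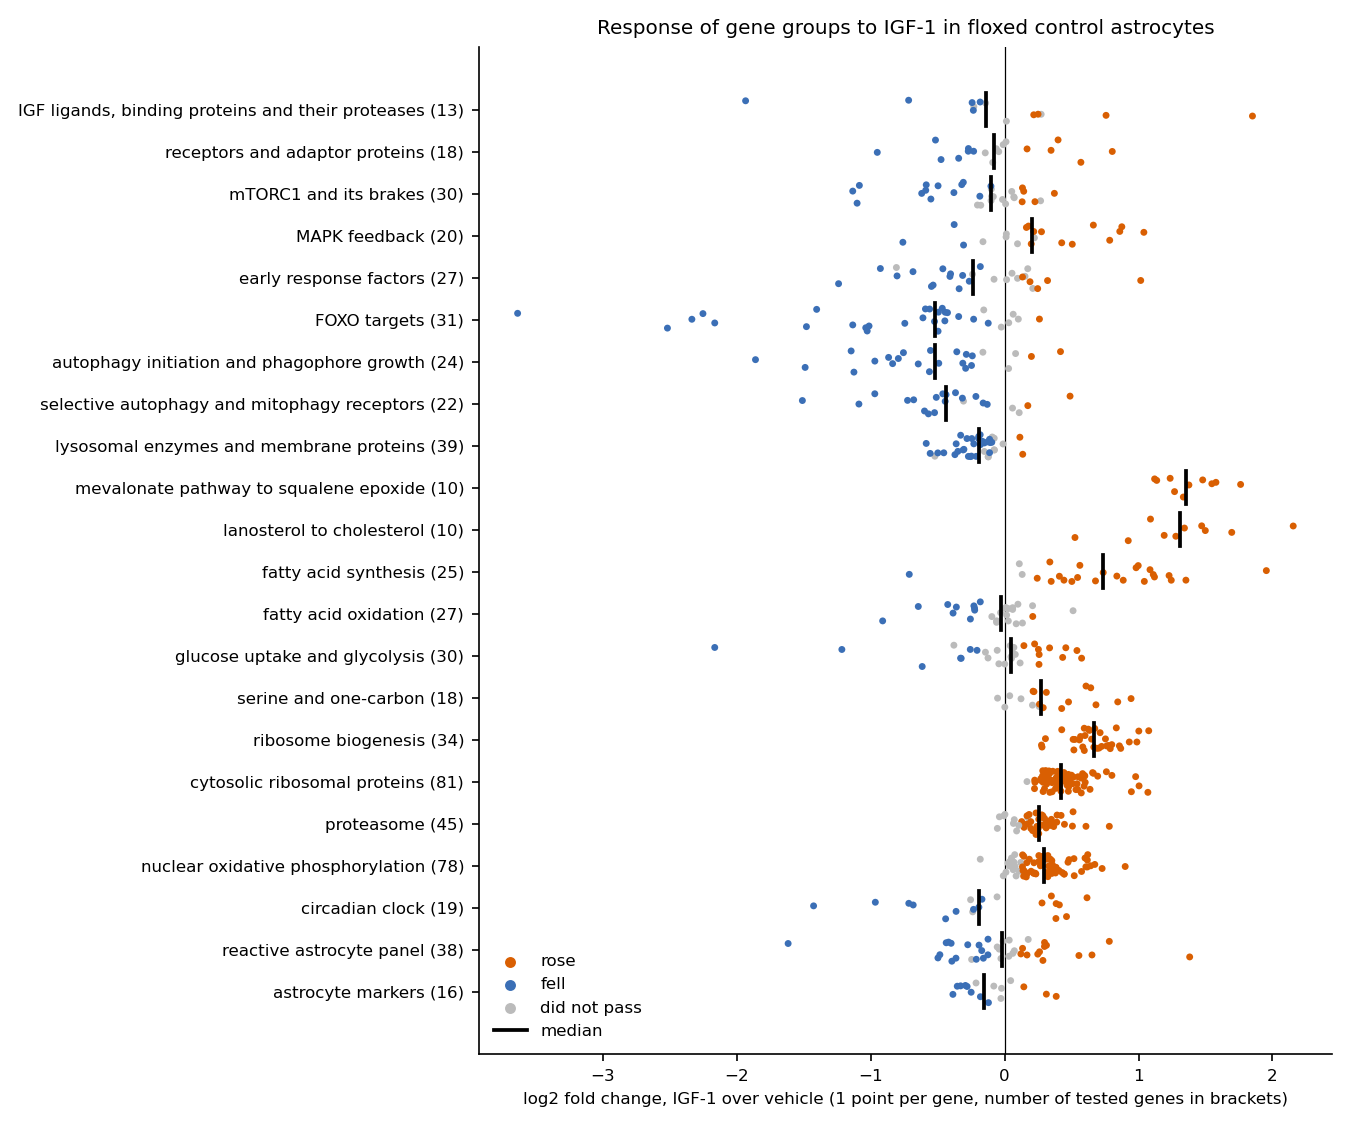
Log2 fold change (IGF-1 over vehicle) of every tested member of 22 gene groups, ordered by role. Each point is 1 gene, orange where it rose, blue where it fell and grey where it did not pass, and the black bar is the group's median. Sterol and ribosome groups lie to the right of 0, and FOXO targets and autophagy groups to the left.

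Genes of cholesterol synthesis rose as a whole. All 10 genes of the mevalonate route to squalene epoxide and all 10 genes from lanosterol to cholesterol rose, with medians of 1.36 and 1.31. The first set summed to 3194 to 3434 TPM under IGF-1, against 1339 to 1417 TPM under vehicle. Idi1, an isomerase of the isoprene units (chromosome 13, 8885501 to 8892451, plus strand), had 133, 145, 132 and 139.6 CPM in the IGF-1 libraries, against 38.6, 40, 43.6 and 39.9 CPM in the vehicle libraries (log2 fold change 1.76, SE 0.0563, edgeR adjusted p = 6.45e-27). Hsd17b7, a reductase of the late steps (chromosome 1, 169949535 to 169969241, minus strand), had 158, 198, 168 and 189 CPM in the IGF-1 libraries, against 39.8, 40.5, 39.2 and 40.9 CPM in the vehicle libraries (log2 fold change 2.15, SE 0.0555, edgeR adjusted p = 7.33e-30). For both genes every IGF-1 library was more than 2-fold above the highest vehicle library. Lss, which closes the sterol rings, changed by 1.70 and Ebp, a late isomerase, by 0.53, the smallest change in the pathway. Fdps (1.27) shares 26.7% of its exon length and is uncertain.

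SREBP factors control these genes and are themselves held back by INSIG proteins. Srebf2 (0.33) and Srebf1 (0.34) rose, each by less than the enzymes. Insig1, a target of SREBP, had 302, 329.8, 292 and 323 CPM in the IGF-1 libraries, against 136, 135, 145 and 142 CPM in the vehicle libraries (log2 fold change 1.16, SE 0.0409, edgeR adjusted p = 1.77e-25), and Insig2 fell, with 40.8, 44.8, 43.2 and 41.9 CPM in the IGF-1 libraries, against 65.7, 69.7, 72 and 74.2 CPM in the vehicle libraries (log2 fold change -0.72, SE 0.056, edgeR adjusted p = 2.4e-14). The SREBP escort gene Scap (-0.22) and the protease gene Mbtps1 (-0.43) fell.

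Short runs known from sterol promoters were searched in the same RefSeq windows on both strands. The sterol response element, spelled here TCACNCCAC, was found in 1.24% of all windows and, of the 18 windows of these 20 synthesis genes (15 genes had one), in 1, that of Hmgcs1. The run CCAAT, bound by NF-Y, was found in 14 of the 18 (77.8%), against 37.3% of windows of all tested genes. Both runs also occurred in groups that mostly fell. CCAAT was in 19 of the 34 windows of the FOXO target list (55.9%). The sterol response element was in 3 of 33 windows of lysosomal genes (9.09%), against 5.56% of those of the synthesis genes. Windows of 4 genes are shown with the runs in capitals (CCAAT reads ATTGG on the other strand), as these hold the runs in question upstream of genes that rose. They lie at chr13:119690194-119690293, plus strand (Hmgcs1), at chr1:169969274-169969373, minus strand (Hsd17b7), at chr13:8885497-8885596, plus strand (Idi1) and at chr5:28071176-28071275, plus strand (Insig1).
Hmgcs1: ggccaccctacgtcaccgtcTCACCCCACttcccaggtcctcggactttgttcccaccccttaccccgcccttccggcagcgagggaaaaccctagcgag
Hsd17b7: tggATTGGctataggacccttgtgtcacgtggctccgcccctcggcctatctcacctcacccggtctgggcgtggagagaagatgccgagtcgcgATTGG
Idi1: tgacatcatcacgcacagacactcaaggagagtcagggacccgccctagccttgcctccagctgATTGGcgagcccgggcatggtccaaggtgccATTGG
Insig1: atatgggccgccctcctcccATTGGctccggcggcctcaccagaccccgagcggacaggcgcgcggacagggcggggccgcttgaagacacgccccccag
Hmgcs1, an early enzyme of the mevalonate route, averaged 1329 ± 27.2 TPM under IGF-1 and 588 ± 11.8 TPM under vehicle. The share with CCAAT was 39.3% among windows of genes that rose by more than 1.5-fold and 38.3% among those of genes that fell.

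**Figure D3:**
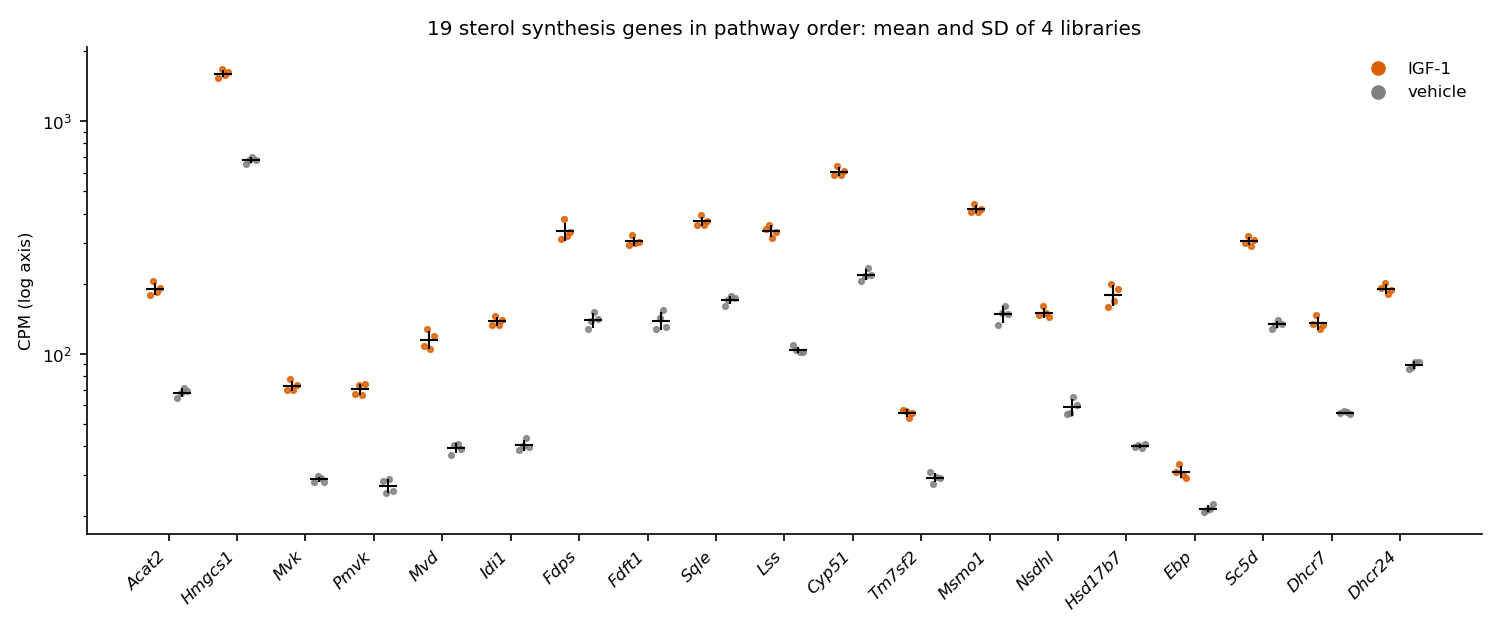
Mean CPM of 19 of the 20 sterol synthesis genes in the order of the pathway, IGF-1 (orange) left of vehicle (grey), with SD over 4 libraries and a point per library, on a log axis. Every gene is higher under IGF-1, from Ebp with the smallest difference to Hsd17b7 with the largest.

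Genes of sterol uptake, transfer and export were split, with 7 of 21 that rose and 8 that fell. The rises included Lrp8, a receptor for apolipoprotein E and reelin (1.09), and the sterol carrier gene Stard4 (1.38). Abca1, the cholesterol exporter, had 772, 741, 769 and 784 CPM in the IGF-1 libraries, against 1442, 1400.2, 1267 and 1391 CPM in the vehicle libraries (log2 fold change -0.84, SE 0.0409, edgeR adjusted p = 8.84e-21), with no overlap. Apoe, the lipid carrier that astrocytes secrete, averaged 6248 ± 342 TPM under IGF-1 and 8072 ± 178 TPM under vehicle (log2 fold change -0.31, SE 0.0504, edgeR adjusted p = 1.66e-06), the largest loss in TPM among genes that fell and share little sequence with others.

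Fatty acid synthesis leaned the same way, with 22 of 25 genes up and 1 down (median 0.74), and their sum was 8383 to 8616 TPM under IGF-1 and 4991 to 5196 TPM under vehicle. Fasn, the fatty acid synthase, had 862, 890.2, 846 and 855 CPM in the IGF-1 libraries, against 443, 422, 403 and 408 CPM in the vehicle libraries (log2 fold change 1.04, SE 0.0393, edgeR adjusted p = 1.7e-24). Acaca, the carboxylase that commits carbon to fat, rose (1.09), and Acacb, its mitochondrial relative, was the gene that fell (-0.71). The desaturase gene Scd2 averaged 2525 ± 51.7 TPM under IGF-1 and 1471 ± 67.6 TPM under vehicle, the largest gain in TPM by the same rule. Mfsd2a, a carrier of lipids with docosahexaenoic acid, had 124, 124, 115 and 115 CPM in the IGF-1 libraries, against 27.4, 30.5, 34.9 and 30.3 CPM in the vehicle libraries (log2 fold change 1.95, SE 0.0526, edgeR adjusted p = 1.96e-29). Fabp7, the fatty acid binding protein of glial progenitors, rose (1.24). Fatty acid oxidation moved less, with 10 of 27 genes that fell and 1 that rose. Ppara, the receptor that drives oxidation (-0.91), and Cpt1a, which admits fatty acids to mitochondria (-0.64), led the falls, and the rise of Acaa2 (0.21) was lost in 6 of the 8 fits with a library left out. Of 17 genes of triglyceride storage and breakdown, 4 rose and 5 fell, the droplet coat gene Plin3 by -0.80 and the lipase gene Pnpla2 by -0.44.

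Glycolysis as a group stood near the background, with 10 of 30 genes that rose and 7 that fell. Ldha, which makes lactate, had 270.1, 294, 282 and 275 CPM in the IGF-1 libraries, against 181, 184, 197 and 191 CPM in the vehicle libraries (log2 fold change 0.58, SE 0.037, edgeR adjusted p = 8.66e-17), and the lactate carrier gene Slc16a1 rose too (0.54). The glucose carrier gene Slc2a1 did not pass (0.05, SE 0.0457). Pdk2, a second kinase that blocks pyruvate dehydrogenase, fell (-1.21), and Pdk3 did not pass (0.06). In the pentose phosphate route and cytosolic NADPH supply, 8 of 10 genes rose and none fell, Tkt, the transketolase, by 0.49 and the malic enzyme gene Me1 by 0.35. Glycogen genes rose in 8 of 16 cases, including Gys1, the synthase of tissues other than liver (0.37), the branching enzyme gene Gbe1 (0.32) and Nhlrc1, the ligase malin (0.81). Its partner laforin, Epm2a, fell (-0.80).

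Serine and one-carbon metabolism held 12 rises and no fall among 18 genes (median 0.27). Mat2a, which makes the methyl donor S-adenosylmethionine, had 384, 399.6, 377 and 400.2 CPM in the IGF-1 libraries, against 199, 203, 206 and 203 CPM in the vehicle libraries (log2 fold change 0.94, SE 0.037, edgeR adjusted p = 5.24e-24). Psat1 (0.84) and Phgdh (0.43) make serine, and Mthfd2 (0.64) and Mthfd1l (0.68) carry folate units in mitochondria. Nucleotide synthesis followed with 15 of 19 genes that rose and 3 that fell, led by Impdh2 of guanine nucleotide synthesis (0.96) and Ppat, the first step of purines (0.63), while the ribonucleotide reductase subunit Rrm1 fell (-0.22). Srm, the spermidine synthase gene, had 96.4, 97.7, 99.9 and 87.9 CPM in the IGF-1 libraries, against 33.2, 30, 33.8 and 31.9 CPM in the vehicle libraries (log2 fold change 1.56, SE 0.0607, edgeR adjusted p = 4.22e-24). Amino acid carriers were mixed, with 8 of 21 that rose and 9 that fell. The carriers for cationic amino acids Slc7a1 (0.88) and for large neutral ones Slc7a5 (0.68) rose, whereas Slc43a2 (-0.72) and the lysosomal sensor Slc38a9 (-0.66) fell. Of 17 targets of the stress factor ATF4, 7 rose and 6 fell. Atf4 itself rose (0.52), Asns rose (0.36) and Ppp1r15a fell (-0.68).

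Ribosome biogenesis genes, ribosomal protein genes and aminoacyl-tRNA synthetase genes rose almost without exception. All 34 ribosome biogenesis genes rose (median 0.67, range 0.28 to 1.08). Nop58, a core protein of the particles that methylate ribosomal RNA, had 117, 131, 121 and 141 CPM in the IGF-1 libraries, against 52.1, 61.3, 66.3 and 61.9 CPM in the vehicle libraries (log2 fold change 1.08, SE 0.0585, edgeR adjusted p = 4.1e-19). Nop56 (0.93) and Fbl (0.75) belong to the same particle, and Npm1 (0.72) and Ncl (0.51) are abundant nucleolar proteins. Of 20 genes of RNA polymerase I and its factors, 14 rose and 1 fell, Polr1b the most (0.98), and the fall of Ttf1 (-0.17) was lost in 6 of the 8 fits with a library left out. Cytosolic ribosomal proteins rose in 80 of 81 cases, summing to 44434 to 49700.5 TPM under IGF-1 and 33706 to 38159.5 TPM under vehicle. Rplp1 averaged 2930.1 ± 286 TPM under IGF-1 and 1935 ± 79.7 TPM under vehicle. Reads of these genes can be split among near-identical pseudogenes, so single members are uncertain. Of 20 cytosolic aminoacyl-tRNA synthetases, 19 rose, Farsb the most (0.84), and of 54 initiation factor genes 34 rose and 5 fell. The helicase gene Eif4a1 (0.66) and the cap-binding Eif4e (0.58) rose, and Eif4ebp2, whose protein restrains Eif4e, fell (-0.31).

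Genes of protein folding and breakdown followed. All 8 subunits of the CCT chaperonin, which folds actin and tubulin, rose by 0.37 to 0.62. Of 30 heat shock and DnaJ chaperones, 22 rose and 1 fell, and the constitutive Hspa8 averaged 2118 ± 78 TPM under IGF-1 and 1312 ± 61.8 TPM under vehicle. In the endoplasmic reticulum, 19 of 26 genes rose and 3 fell. The chaperone gene Hspa5 (0.70), Creld2 (0.86) and Xbp1 (0.71) rose, and the stress sensor gene Atf6 fell (-0.25). Of 45 proteasome genes 36 rose, up to 0.78, and none fell. Of 21 tubulin genes and cofactors 16 rose and none fell (median 0.52). Tuba8 (chromosome 6, 121210696 to 121226854, plus strand), an alpha tubulin gene, had 15.2, 17.5, 18.8 and 17.7 CPM in the IGF-1 libraries, against 3.73, 3.84, 4.35 and 3.88 CPM in the vehicle libraries, so that the lowest IGF-1 library was more than 3-fold above the highest vehicle library (log2 fold change 2.13, SE 0.121, edgeR adjusted p = 1.59e-18). Tubb2a (1.39), Tubb3 (1.44) and Tubb6 (1.20) are beta tubulins, and each rose by more than 2-fold.

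Mitochondrial genes of the nucleus rose by small steps. Of 78 oxidative phosphorylation subunits, 63 rose and none fell (median 0.29), of 78 mitochondrial ribosomal proteins 61 rose and 3 fell (median 0.32), and of 28 import genes 22 rose and none fell (median 0.40). The import pore gene Tomm40 (0.70), the receptor gene Tomm70a (0.58) and Cyc1, cytochrome c1 (0.52), were among the clearest. The 3 falls of mitochondrial ribosomal proteins became 1 without IGF-1 replicate 3 or vehicle replicate 4. Of 22 antioxidant genes of the NRF2 and glutathione group, 13 rose and 6 fell. Txnrd1, a thioredoxin reductase, rose by 0.49 and Gss by 0.49, while Gclc fell (-0.21). Without IGF-1 replicate 1 the falls numbered 3.

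Families of secreted signals were split, with large changes of single genes. Of 13 EGF-family ligands and receptors, 3 rose and 3 fell. Ereg, the ligand epiregulin (chromosome 5, 91074622 to 91093646, plus strand), had 7.5, 9.7, 7.58 and 9.24 CPM in the IGF-1 libraries, against 2.24, 2.18, 2.23 and 2.68 CPM in the vehicle libraries (log2 fold change 1.86, SE 0.171, edgeR adjusted p = 2.76e-12). Hbegf, another ligand of the EGF receptor, had 70.1, 70.3, 70.2 and 72.1 CPM in the IGF-1 libraries, against 33, 39.9, 48.8 and 39.4 CPM in the vehicle libraries (log2 fold change 0.81, SE 0.0696, edgeR adjusted p = 5.09e-13), whereas the receptor genes Egfr (-0.24) and Erbb2 (-0.49) fell. Of 27 growth and neurotrophic factors, 7 rose and 10 fell. Apln, the peptide apelin, had 22.2, 26, 25.4 and 29.3 CPM in the IGF-1 libraries, against 7.35, 7.74, 7.27 and 6.62 CPM in the vehicle libraries (log2 fold change 1.83, SE 0.0823, edgeR adjusted p = 6.81e-22), and Artn (1.09) and Vegfa (0.63) rose. Nrtn, the ligand neurturin, fell with overlapping groups (-0.74).

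In the TNF superfamily 7 of 30 genes rose and 6 fell. Tnfsf11, the ligand RANKL (chromosome 14, 78277445 to 78308043, minus strand), had 7.19, 9.87, 8.08 and 6.48 CPM in the IGF-1 libraries, against 1.89, 1.34, 2.81 and 2.34 CPM in the vehicle libraries (log2 fold change 1.90, SE 0.172, edgeR adjusted p = 2.08e-12), while the gene of its receptor, Tnfrsf11a, fell (-0.42). Tnfrsf12a, the receptor Fn14, had 61.4, 78.7, 67.8 and 84.6 CPM in the IGF-1 libraries, against 19, 22.6, 24.7 and 22.7 CPM in the vehicle libraries (log2 fold change 1.72, SE 0.0938, edgeR adjusted p = 4.89e-19), and the decoy receptor genes Tnfrsf22 (1.5) and Tnfrsf23 (0.65) rose as well. The groups did not overlap in Tnfsf11 or in Tnfrsf12a.

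Of 13 hedgehog pathway genes, 5 rose and none fell. Shh, the ligand sonic hedgehog (chromosome 5, 28456815 to 28467256, minus strand), had 22.6, 20.8, 21.7 and 26.4 CPM in the IGF-1 libraries, against 6.14, 6.72, 7.27 and 6.39 CPM in the vehicle libraries, a separation of more than 2-fold between the nearest libraries (log2 fold change 1.78, SE 0.121, edgeR adjusted p = 4.39e-16). The transcription factor genes Gli2 (0.38) and Gli3 (0.41) and the receptor gene Ptch1 (0.14) rose by less, and Gli1, a target that reports hedgehog activity, did not pass (-0.18, SE 0.153). Of 23 Wnt genes, 6 rose and 3 fell, the ligands Wnt7b (1.01) and Wnt7a (0.78) upward and Wnt5a downward (-0.30), and the target gene Axin2 did not pass (0.09). Of 31 genes of the TGF-beta and BMP pathways, 5 rose and 12 fell. Acvr2b, an activin receptor, had 0.914, 1.08, 0.73 and 1.02 CPM in the IGF-1 libraries, against 3.1, 4.41, 2.92 and 3.08 CPM in the vehicle libraries (log2 fold change -1.84, SE 0.253, edgeR adjusted p = 5.87e-08). The ligands Bmp4 (-1.08) and Bmp2 (-0.72), the receptor genes Bmpr1a (-0.49) and Bmpr1b (-0.62) and the targets Id2 (-0.30) and Id3 (-0.36) fell, and the activin subunit Inhba rose (0.84). Notch genes (4 of 18 rose, 4 fell) included a rise of Lfng, an enzyme that modifies the receptor (0.91).

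Matrix and guidance genes were split. Of 36 collagen genes, 6 rose and 9 fell, Col5a1 upward (0.52) and Col6a4 downward (-1.39). Of 27 axon guidance genes, 7 rose and 8 fell, with Sema3f (0.63) and Ephb2 (0.62) among the rises and Ntn4 (-1.45) and Efna1 (-1.25) among the falls. Of 17 secreted proteins that act on synapses, 4 rose and 9 fell. Ccn2, a matrix protein gene driven by YAP, had 17.2, 19, 18.5 and 16.9 CPM under IGF-1, against 40.9, 42.5, 47.4 and 41.7 CPM under vehicle (log2 fold change -1.27, SE 0.0745, edgeR adjusted p = 4.6e-18), and its relative Ccn1 rose, with 159, 161, 164 and 172 CPM under IGF-1, against 88.5, 99.1, 104 and 96.2 CPM under vehicle (log2 fold change 0.76, SE 0.0458, edgeR adjusted p = 1.05e-17). Thbs2 (0.45) and Tnc (0.51) rose, and Sparcl1, the synapse-promoting protein hevin, fell (-0.20).

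Of 25 cytokine genes, 8 rose and 5 fell. Ccl2, a chemokine that draws monocytes, had 1272, 1422, 1241 and 1360.3 CPM in the IGF-1 libraries, against 894, 959, 1094 and 1012 CPM in the vehicle libraries (log2 fold change 0.42, SE 0.0555, edgeR adjusted p = 2.67e-08), and Ccl7 rose by more (1.04). Il33 (0.50) and Cxcl14 (0.45) rose, and Il15 (-0.69) fell. Without vehicle replicate 3 the rises numbered 13. Of 28 interferon response genes, 4 rose and 8 fell, Irf1 (-0.47) and Ifit2 (-0.46) the furthest. The 4 rises were small, from 0.11 for Irf9 to 0.21 for Isg15, and became 8 without vehicle replicate 3 and 1 without IGF-1 replicate 2 or vehicle replicate 4.

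Genes that govern entry into the cell cycle were split. Of 29 genes of G1 control, 7 rose and 13 fell. Ccnd1, the cyclin of the G1 phase, had 1324, 1284, 1282 and 1318 CPM under IGF-1, against 661, 697, 742 and 692 CPM under vehicle (log2 fold change 0.90, SE 0.0352, edgeR adjusted p = 5.17e-24), although 23.4% of its exon length is shared, and Ccnd2 rose (0.64). The Myc antagonists Mxi1 (-1.42), Mxd4 (-1.03), Mxd1 (-0.92) and Mnt (-0.64) and the pocket proteins Rbl2 (-1.01) and Rb1 (-0.54) fell. Of 30 genes of S phase and mitosis, 5 rose and 5 fell (median -0.01). Ccna2, a cyclin of S phase, rose (0.35), Mcm7, a helicase subunit, fell (-0.74), and Top2a did not pass (0.04, SE 0.0514). The 5 rises became 3 without IGF-1 replicate 4 or vehicle replicate 2. Of 20 p53 targets, 9 fell and 3 rose, Fas by -0.55, and Cdkn1a did not pass (0.02). The rises numbered 1 without IGF-1 replicate 3.

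Clock genes changed in 16 of 19 cases, 7 upward and 9 downward. Rora, a nuclear receptor that activates clock genes (chromosome 9, 68653786 to 69388246, plus strand), had 25.2, 23.1, 24.2 and 25.7 CPM in the IGF-1 libraries, against 67.8, 68.1, 59.3 and 68.9 CPM in the vehicle libraries (log2 fold change -1.43, SE 0.0621, edgeR adjusted p = 2.18e-22). Nr1d2 (-0.96), Per3 (-0.71), Dbp (-0.68) and Per1 (-0.36) fell, while Arntl (0.62), Clock (0.28), Cry1 (0.39) and Per2 (0.41) rose. The libraries were taken at 1 time point, so phase and level cannot be told apart. Hypoxia targets were split (6 of 18 rose, 5 fell). Hif1a (0.57) and Egln3 (0.84) rose and Kdm3a fell (-0.88).

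Of the genes that mark astrocytes more fell than rose. Of 16 tested markers, 3 rose and 8 fell (median -0.15), and their sum was 4683 to 4882 TPM under IGF-1 and 5235 to 5668 TPM under vehicle. Gfap had 618, 653, 699 and 632 CPM in the IGF-1 libraries, against 700.1, 645, 679.9 and 626 CPM in the vehicle libraries, with overlap (log2 fold change -0.03, SE 0.045, edgeR adjusted p = 0.646). Slc1a3 (-0.25), Glul, the glutamine synthetase gene (-0.28), and Aqp4, the water channel gene (-0.18), fell, and Aldh1l1 (0.31), Fgfr3 (0.39) and Gja1, the gap junction protein (0.14), rose. Of 21 genes of transport and coupling, 5 rose and 6 fell. Of 21 lineage factors, 5 rose and 7 fell. Zbtb20, a factor that promotes astrocyte fate, had 650.2, 581, 609 and 618 CPM in the IGF-1 libraries, against 1067, 1016, 944 and 1047 CPM in the vehicle libraries (log2 fold change -0.73, SE 0.0429, edgeR adjusted p = 4.69e-18), and Sox9 (-0.35) and Nfia (-0.33) fell.

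A panel of genes that mark reactive astrocytes changed without a common direction, with 13 of 38 that rose and 15 that fell (median -0.02). Tgm1, a transglutaminase gene, had 13.6, 14.7, 14 and 15.9 CPM in the IGF-1 libraries, against 5.28, 5.12, 6.58 and 5.25 CPM in the vehicle libraries (log2 fold change 1.38, SE 0.113, edgeR adjusted p = 1.28e-13). Ptx3 (0.78), the filament gene Nes (0.65), Timp1 (0.55) and Lcn2 (0.30) rose. Aspg (-1.62), Ggta1 (-0.50), Gbp2 (-0.40) and Serping1 (-0.39) fell, as did Vim, the filament vimentin (-0.17), and C3, the complement component (-0.14).

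Markers of other cells were not all low. In the oligodendrocyte lineage, Olig2 had 120.2, 121, 116 and 125 CPM in the IGF-1 libraries, against 61.4, 66.5, 77.2 and 63.4 CPM in the vehicle libraries (log2 fold change 0.84, SE 0.0544, edgeR adjusted p = 9.56e-17) and Olig1 rose (0.75), whereas Cspg4 (-0.44) and Mbp (-0.56) fell, and Sox10 had 0 to 3 counts under IGF-1 and 3 to 10 under vehicle. Of 7 neuron markers, Tubb3 and Stmn2 (0.47) rose and Map2 fell (-0.14), a call lost in 6 of the 8 fits with a library left out, and Slc17a6 had no count in any of the 8 libraries. Of 10 fibroblast and mural markers 3 fell and none rose. The ciliated-cell gene Foxj1 fell (-0.36), with 2410 to 2913 counts under IGF-1 and 3039 to 3642 under vehicle. Rsph1, Dynlrb2 and Ccdc153, other genes of ciliated cells, were far scarcer and did not pass. Rsph1 had 115 to 138 counts under IGF-1 and 105 to 140 under vehicle, Dynlrb2 19 to 31 and 29 to 43, and Ccdc153 10 to 22 and 14 to 27. Tmem212 had 0 to 1 and 0 to 4 counts and was not tested. Albumin and transthyretin passed the test with most of their counts in IGF-1 replicates 1 and 3. Alb had 22, 1, 57 and 1 counts in the IGF-1 libraries and 2, 2, 0 and 2 in the vehicle libraries, and Ttr had 11, 1, 4 and 0 against 1, 0, 0 and 0. The same replicates held most counts of some other scarce liver genes under IGF-1. Mup3 had 7, 0, 6 and 0 and Serpina1c 6, 0, 4 and 0, with no count of either in the vehicle libraries. The liver genes Apoh, Hp and Apoa2 did not follow this pattern and did not pass. Apoh had 58, 73, 84 and 101 counts under IGF-1 and 75, 105, 69 and 100 under vehicle. Hp had 81, 74, 90 and 97 counts under IGF-1 and 81, 74, 71 and 106 under vehicle. Alb lost its call in 6 of the 8 fits with a library left out and Ttr in 3. The part of cells other than astrocytes in the results above was not tested.

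Genes used as internal standards also moved. Of 17, 10 rose and 3 fell. Gapdh rose (0.20, SE 0.0387), Tfrc, the transferrin receptor, rose the most (0.68), and Polr2a fell (-0.36). Actb (-0.06, SE 0.0378) and Eef2 (0.07, SE 0.0365) did not pass. Zinc finger genes named Zfp fell in 94 of 358 cases and rose in 49 (median -0.08). Of 605 tested genes in GENCODE's long noncoding RNA classes, 119 fell and 60 rose. Among scarce genes the furthest falls were those of Rasgef1a (0.306 ± 0.0523 CPM under IGF-1 and 2.41 ± 0.334 CPM under vehicle) and of the long noncoding RNA gene 2610035D17Rik (1.14 ± 0.349 CPM under IGF-1 and 7.71 ± 0.985 CPM under vehicle). The scarce small nucleolar RNA genes Snord104 (2.51 ± 0.706 CPM under IGF-1 and 0.504 ± 0.245 CPM under vehicle) and Snora57 (2.98 ± 1.02 CPM under IGF-1 and 0.695 ± 0.221 CPM under vehicle) rose, as measured in poly-A libraries.

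IGF-1 and insulin at the same dose and time differed at few genes. The test of IGF-1 against insulin, with 4 libraries each, called 404 of 15599 genes (2.59%), of which 171 were higher (1.1%) and 233 lower (1.49%) under IGF-1, 9 and 9 of them by more than 1.5-fold. Of the 530 genes changed by more than 2-fold against vehicle, 55 were called against insulin. Against vehicle, 152 of the 171 higher genes rose and 5 fell, and 182 of the 233 lower genes fell and 10 rose. The comparison uses the same IGF-1 libraries as that with vehicle, so this overlap is partly built in. At an unadjusted p under 0.05, 2134 genes (13.7%) differed, so a gene that was not called is not shown to respond alike.

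The 8 genes described next lay furthest above insulin among those called, limited to genes at or over 2 in mean log2 CPM whose libraries did not overlap. Shh averaged 22.8 ± 2.47 CPM under IGF-1 and 13 ± 2.36 CPM under insulin (log2 difference 0.81, SE 0.11, edgeR adjusted p = 1.04e-05), against 6.63 ± 0.488 CPM under vehicle. Ereg averaged 8.5 ± 1.13 CPM under IGF-1 and 4.75 ± 1.4 CPM under insulin (log2 difference 0.83, SE 0.154, edgeR adjusted p = 0.000744). Sox7, a transcription factor gene, averaged 11.4 ± 1.62 CPM under IGF-1 and 7.25 ± 1.18 CPM under insulin (log2 difference 0.66, SE 0.122, edgeR adjusted p = 0.000772), and Akap12, a scaffold of kinase A, averaged 304 ± 16.2 CPM under IGF-1 and 205 ± 4.31 CPM under insulin (log2 difference 0.57, SE 0.0408, edgeR adjusted p = 8.62e-13). Tnfsf11 (0.59), the adhesion gene Sele (0.58) and Sertm1 (0.55) followed, and Fosl1 (0.60) is uncertain. Of 20 MAP kinase feedback genes, 8 were higher under IGF-1 and none lower, against 1.1% and 1.49% of all genes. They included Spred3 (0.39), Dusp6 (0.42) and Spry4 (0.25). Of the 20 sterol synthesis genes 9 were higher and none lower, with Hsd17b7 at 179 ± 18.4 CPM under IGF-1 and 140.5 ± 9.67 CPM under insulin (log2 difference 0.35, SE 0.0498, edgeR adjusted p = 2.36e-05).

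Of the 8 genes furthest below insulin by the same rule, Rhbdl3, a rhomboid-like protein gene, averaged 13.2 ± 0.473 CPM under IGF-1 and 20.6 ± 1.82 CPM under insulin (log2 difference -0.64, SE 0.0812, edgeR adjusted p = 2.68e-06). Ip6k3 (-0.65), Minar1 (-0.59), Arhgap8 (-0.57), Lrrc75b (-0.55) and Reln, the extracellular protein reelin (-0.52), were lower too. Enho (-0.54) and Cacng4 (-0.51) were lower than under insulin and did not pass against vehicle (-0.28 and -0.32). Of 16 astrocyte markers 5 were lower and none higher, including Aqp4, at 1004 ± 20.7 CPM under IGF-1 and 1233 ± 51 CPM under insulin (log2 difference -0.30, SE 0.0344, edgeR adjusted p = 4.34e-07). Kcnj10, a potassium channel gene, was also lower (-0.33). Of 28 interferon response genes 8 were lower and none higher, Ifit2 by -0.32. Igf1r was higher under IGF-1 than under insulin (99.1 ± 2.57 CPM under IGF-1 and 88.4 ± 3.37 CPM under insulin, log2 difference 0.16, SE 0.0411, edgeR adjusted p = 0.0177). Without IGF-1 replicate 4 the calls numbered 250 and without insulin replicate 2 they numbered 247, with 127 and 141 lower under IGF-1. Leaving out some single library also ended the calls of Tnfsf11, Sele, Sertm1, Ip6k3, Arhgap8, Reln, Enho, Cacng4 and Igf1r, and that of Gfap, which is among the 5 astrocyte markers called lower. Those of Shh, Ereg, Sox7, Akap12, Rhbdl3, Minar1, Lrrc75b, Aqp4 and Hsd17b7 held in each of these fits.

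**Figure D4:**
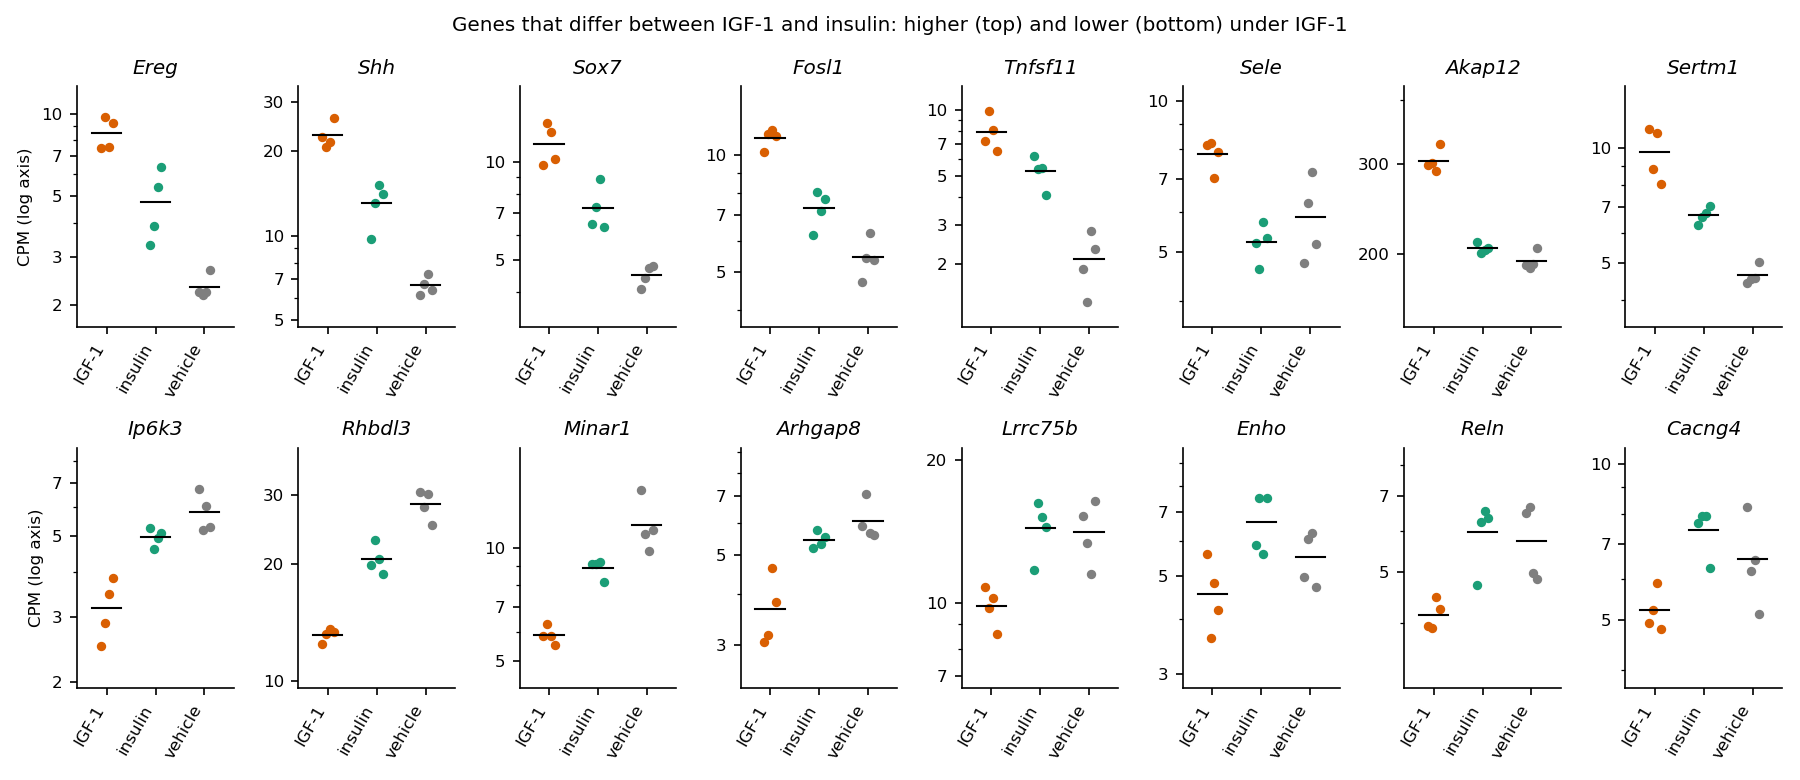
CPM of 16 genes chosen by their difference between IGF-1 and insulin, on a log axis. For each gene the IGF-1 libraries (orange), insulin libraries (green) and vehicle libraries (grey) stand from left to right, with a bar at each mean, and the first 8 genes were higher and the last 8 lower under IGF-1 than under insulin.

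IGF-1 was also given to cells treated with Cre. In IRKO astrocytes Insr averaged 30.3 ± 1.4 CPM under IGF-1 and 40.4 ± 2.47 CPM under vehicle, against 48.5 ± 1.95 CPM under IGF-1 and 61.6 ± 3.6 CPM under vehicle in the floxed control. IGF-1 changed 8114 genes there (52.0%), 26.9% upward and 25.1% downward, in libraries that the floxed comparison does not use. Of the genes that rose in floxed control cells, 3519 also rose in IRKO cells, which is 85.4% of the floxed and 83.9% of the IRKO rises. The same held for 3077 falls, 80.8% and 78.5% of the lists, and 2 genes of each direction were called the opposite way. The test of the difference between the responses called no gene in edgeR (smallest adjusted p = 0.223), with 822 genes (5.27%) at an unadjusted p under 0.05. DESeq2 called 2, and edgeR without the expression filter called 19. Among the 530 genes changed by more than 2-fold, the median size of the difference in log2 response was 0.198, against a median SE of 0.307, so differences of that size could not be told from 0 with 4 libraries a group.

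Single genes differed in how near their responses lay to each other. Fbxo32 changed by -3.64 in floxed control and -3.60 in IRKO cells, Ulk1 by -1.49 and -1.44, Hsd17b7 by 2.15 and 2.05, Shh by 1.78 and 1.69, and Igf1r by -0.95 and -0.95. Values lay further apart for Cdo1 (-1.75 and -2.26), Pdk4 (-2.16 and -1.72), Klf11 (-1.72 and -1.34), Ereg (1.86 and 1.48) and Tnfsf11 (1.90 and 1.55). All 20 sterol synthesis genes, 34 of 34 ribosome biogenesis genes and 80 of 81 ribosomal protein genes rose in IRKO cells too. Of the FOXO targets, 25 of 31 fell there. Of 28 interferon genes 4 rose and 8 fell in the floxed control, where the rises were 1 to 8 with a library left out, and 13 rose and 3 fell in IRKO cells. Of 15 microglia markers 7 fell in the floxed control and 12 in IRKO cells. The test of the difference called none of these genes. Wnt5a had the smallest p of the difference test (-0.30 in floxed control, -0.02 in IRKO, adjusted p = 0.223 in edgeR), which does not pass, and it was called in DESeq2 (adjusted p = 0.0242).

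**Figure D5:**
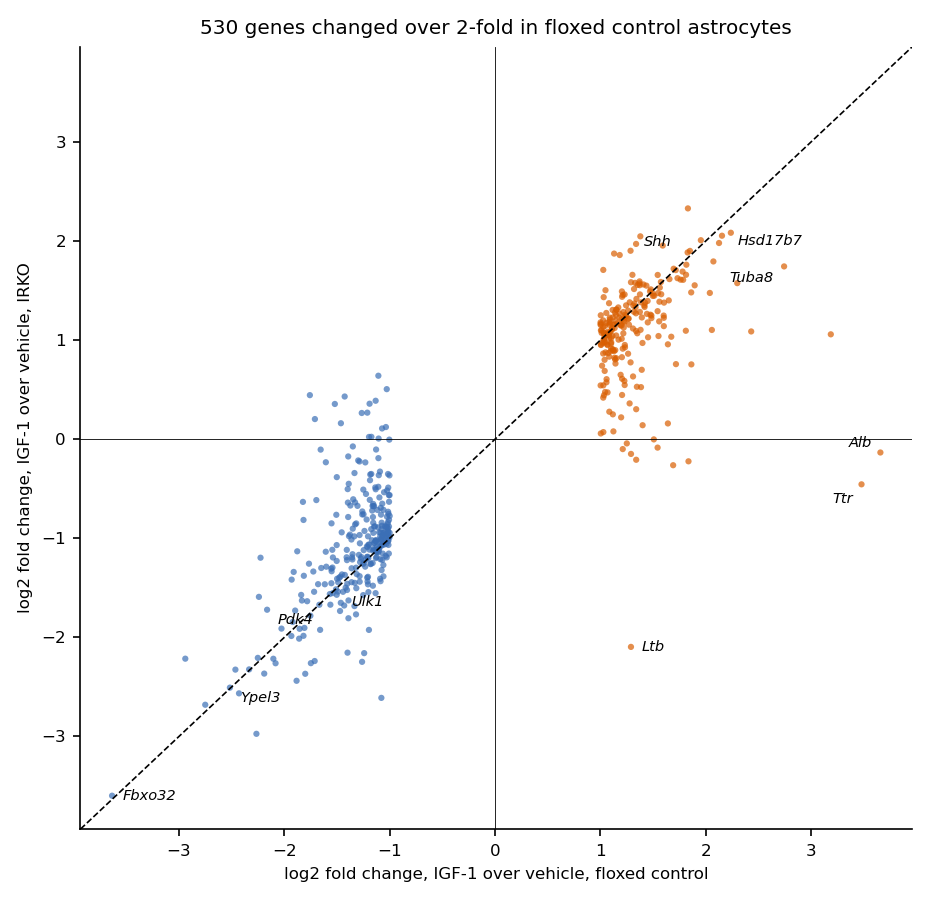
Log2 fold change of IGF-1 over vehicle in floxed control astrocytes (horizontal) against that in IRKO astrocytes (vertical) for the 530 genes that changed by more than 2-fold in the floxed control. The dashed line marks equal responses, and 10 genes are named, of which Alb, Ttr and Ltb lie furthest below the line. The genes were chosen by their value on the horizontal axis.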

How the data were processed

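Groups and replicate numbers come from the sample titles. The deposited files hold raw read counts per gene with no normalization. The build mm10 and the tools R 4.0.4, DESeq2, edgeR and STAR 2.7.7a stand in the submitters' processing notes with no role given, and the counting program is not given in the sources used here. Library sizes and tests leave out the 3 lines of each file that name no gene. Reads that those lines do not list as a unique overlap with genes were 14.5 to 23.2% of the 8 libraries. Gene counts summed to 4.7 to 4.93% more than the reads listed as a unique overlap, so some counts come from other reads or from reads counted more than once.

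Counts were fitted with edgeR 4.0.16 (R 4.3.3; expression filter with a minimum count of 10 and total of 15, TMM, quasi-likelihood test) with 1 mean for each of the 6 groups of all 24 libraries, and p-values were adjusted over 15599 genes by Benjamini-Hochberg. The biological coefficient of variation was 4.92%. CPM used TMM sizes, and TPM used GENCODE M21 exon lengths of at least 300 bases on mm10. Counts between replicates differed beyond sampling noise (chi-square per gene 3.19 to 6.42), so each library counted once. Genes with over 20% of their exon length inside another gene are given as uncertain, since reads carry no strand.

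The comparison, the named genes and the 75 gene lists were chosen with earlier results of these data known, and lists share genes. Named genes were the 20 largest rises and falls without overlap at a mean log2 CPM of at least 2, the 5 largest of each at 0 to 2, the 10 largest in TPM (limited to genes of at least 300 bases with at most 20% shared, a limit set after values were seen), 8 and 8 against insulin by the first of these rules, and up to 6 per list by p with all members of signal and marker lists. Other list members were named after their values were seen, and some genes are not reported here. On simulated counts of 15419 genes for IGF-1 against vehicle, 100 genes were changed by 0.5 and 100 by 1 on the log2 scale. Of these, 74% and 82% were recovered, with 0.0591% of unchanged genes called. Far fewer genes were changed there than the 50.8% called in the data, so these rates may not carry over. DESeq2 1.42.0 and the other alternatives are in the closing section.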

Additional observations from a re-analysis of the deposited data

Results flagged for a closer look

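Of the genes given per library, 47 genes or 94 groups of 4, 7 groups held 1 library that stood apart from the other 3 by Dixon's criterion (the gap to the nearest library over the group's range), where chance gives about 1 in 20 groups. In the IGF-1 group, Trib2 had 53 CPM in replicate 2 against 41.9 to 42.9 CPM in the others, and Hbegf had 72.1 CPM in replicate 4 against 70.1 to 70.3 CPM. In the vehicle group, Acvr2b had 4.41 CPM in replicate 2 against 2.92 to 3.10 CPM, Gabarapl1 had 171 CPM in replicate 2 against 178 to 180 CPM, and Ereg had 2.68 CPM in replicate 4 against 2.18 to 2.24 CPM. Vehicle replicate 3 was low in Rora, with 59.3 CPM against 67.8 to 68.9 CPM, and high in Tgm1, with 6.58 CPM against 5.12 to 5.28 CPM. None of these 7 genes lost its call against vehicle under the alternatives run, which included leaving out each library.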

How the results depend on the processing

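Against vehicle, the count of changed genes was 7745 to 7951 under other tools, scalings, filters and sample sets, and 7300 to 7745 with a library left out; rises numbered 3762 to 4121 and 3658 to 4019, and falls 3670 to 4137 and 3512 to 3788. Library size alone gave 3890 rises and 4061 falls, and a mean CPM of at least 1 gave 3762 and 4137, so the balance turned there, as it did without IGF-1 replicate 1 (3759 and 3788). Rises over 1.5-fold numbered 737 to 885 and falls 886 to 969, or 798 to 891 and 862 to 988 with a library left out. In IRKO cells, by alternatives chosen after seeing the data, the count was 7904 to 8114, or 7554 to 7783. Same-numbered libraries did not deviate together over the tested genes (r = -0.055 to 0.038). That gave no sign of pairing, but it cannot exclude a shared culture or batch. The replicate block gave 7917 changed genes, 4118 up and 3799 down. Against insulin, calls numbered 247 to 447 with a library left out (106 to 196 higher, 127 to 251 lower), and without the expression filter 296 were higher. The difference between genotypes gave 2 genes in DESeq2 and 19 without the filter, and 0 in each fit with a library left out. No named gene reversed its direction where it was called in the main fit or in the alternative. Changes of sign among genes called in neither were not counted. Against vehicle, 17 of 334 named genes crossed the threshold under some alternative, 60 times out of a call and 7 times into one. The causes were not tested. Depth limits scarce genes most, such as Rasgef1a at under 1 CPM.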

Other observations

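Several of the largest changes fell outside the gene groups described above. Klhl24, a ubiquitin ligase adaptor gene, averaged 90.4 ± 2.65 CPM under IGF-1 and 305 ± 6.07 CPM under vehicle (SD, n = 4 each, log2 fold change -1.75, SE 0.0431, edgeR adjusted p = 3.54e-30). Nipal3 averaged 22 ± 1.39 CPM under IGF-1 and 77.1 ± 3.72 CPM under vehicle (log2 fold change -1.81, SE 0.0703, edgeR adjusted p = 4.24e-24). The noncoding gene C530044C16Rik fell (-2.19), as did Galnt15, an enzyme that starts O-glycans (-2.08), the adhesion gene Igsf9 (-1.83), Cdo1, the cysteine dioxygenase gene (-1.75), and Klf11 (-1.72). Among the rises were Rab27b, a GTPase of secretory vesicles, at 28 ± 0.731 CPM under IGF-1 and 7.9 ± 1.15 CPM under vehicle (log2 fold change 1.82, SE 0.0999, edgeR adjusted p = 5.72e-19), Lipg, the endothelial lipase gene (1.51), Trabd2b, whose protein cleaves Wnt ligands (1.54), Ngef, an exchange factor for small GTPases (1.54), and Prokr1, a prokineticin receptor gene (1.81).

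Of 55 tested potassium channel genes, 10 rose and 10 fell. Kcnq3, a subunit of the M channel, had 26, 28.8, 26.8 and 29.3 CPM in the IGF-1 libraries, against 82.1, 79.2, 71.9 and 80.9 CPM in the vehicle libraries (log2 fold change -1.5, SE 0.0618, edgeR adjusted p = 2.83e-23). Of 14 histone genes 1 rose and 5 fell, H2ax upward (0.39) and H2az2 downward (-0.47). In RefSeq promoter windows (GRCm38.p6) the E-box CACGTG, which reads the same on both strands, was found in 13.5% of windows of genes that rose by more than 1.5-fold, in 9.46% of those that fell by as much and in 8.1% of those of genes that did not pass, with no test. It was found in 12 of 33 windows of lysosomal genes (36.4%), 24.2% of those of ribosome biogenesis genes, 23.5% of those of FOXO targets and 16.7% of those of sterol synthesis genes, against 9.39% of windows of tested genes.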
